A study of Rattus norvegicus with 48 samples.

Results

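The comparison was between 4-octyl itaconate (4OI) and amlexanox, both given to primary rat cortical cultures together with the HIV protein Tat. Its members were the 3 libraries of the Tat-4OI group and the 3 libraries of the Tat-Amlexanox group, chosen by their sample labels, which made 6 of the 48 libraries and 2 of the 16 groups of the series, and all genes in the table entered it. The cultures were mixed cortical cells from fetal day 18 Sprague-Dawley rats, kept for 3 weeks (21 days in vitro). Tat-4OI cultures received Tat 1-86 at 6 ng/mL with 4OI at 250 µM for 48 h, and Tat-Amlexanox cultures received the same Tat for the same 48 h with amlexanox at 25 µM. The doses of the compounds therefore differed, and every difference below belongs to these treatments at these doses. According to the methods, the 4OI stock was made in DMSO, and the labels give no vehicle for any group. An effect of the vehicle therefore cannot be told apart from that of a compound. Libraries used for reference came from untreated cultures (Control), cultures given Tat alone, cultures given either compound without Tat (4OI and Amlexanox, same doses), and cultures given Tat, then cocaine at 25 µM for 24 h, with either compound (Tat-Cocaine-4OI and Tat-Cocaine-Amlexanox), with 3 libraries in each group. The series compared small molecules with anti-inflammatory activity in this culture model of HIV-associated and cocaine-associated neurotoxicity.

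Itaconate is a metabolite that activated macrophages make from the tricarboxylic acid cycle intermediate cis-aconitate through the enzyme Acod1, and 4OI is an ester of it that enters cells. Itaconate and 4OI modify cysteines of proteins. One such protein is Keap1, which otherwise keeps the transcription factor Nrf2 (gene Nfe2l2) low, so that Nrf2 can bind antioxidant response elements and raise genes for glutathione synthesis, quinone reduction, NADPH supply and iron storage. Amlexanox is an anti-allergic drug that inhibits TBK1 and IKK-epsilon, the kinases that carry signals from nucleic acid sensors and toll-like receptors to the interferon regulatory factors, and it also inhibits phosphodiesterases. Tat is the viral transactivator, is released by infected cells, and activates microglia and astrocytes.

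The 6 libraries held 17.5 to 22.6 M reads on genes (median 19.4 M), against 17.5 to 29.1 M over all 48, and no pair of them was a duplicate. Values are read counts scaled to library size (CPM) as the authors deposited them. A gene at 0.5 CPM stood for 8.99 to 11.5 reads in these libraries. The labels call the cells neurons, and neuronal Map2 was at 397.4 to 591.4 CPM, but astrocytic Gfap at 3841 to 5297 CPM, myeloid Csf1r at 104.1 to 500.4 CPM and oligodendrocytic Mbp at 48.01 to 563.7 CPM were present too, while endothelial Cldn5 was at most 0.0535 CPM. Mbp varied widely inside both groups, being lowest in Tat-4OI replicate 2 and in Tat-Amlexanox replicates 1 and 2. With oligodendrocyte level as a covariate, an alternative chosen after seeing the data, 2583 genes passed. With Tat-4OI replicate 2 and Tat-Amlexanox replicate 3 left out together, 2300 passed. That setting kept the Tat-4OI libraries higher in Mbp and the Tat-Amlexanox libraries lower in it. Under it the median difference of the oligodendrocyte genes went from 0.26 to 1.23, so it is no check on oligodendrocyte content. Nothing in the labels says that libraries of a group came from separate cultures, so they may not be independent cultures. The source of the spread between them was not tested.

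Of 15890 genes tested, 2178 (13.7%) differed between Tat-4OI and Tat-Amlexanox at a false discovery rate (FDR) under 0.05 in limma. In Tat-4OI, 1094 genes (6.88%) were higher and 1084 (6.82%) were lower, and 514 of the 2178 differed by more than 1 on the log2 scale. The split moved to 801 higher and 1486 lower when each library was rescaled to the same sum, and the median difference over all genes was 0.000945 as deposited and -0.0439 after that rescaling. Libraries of the groups did not overlap for 39.3% of all tested genes, so a lack of overlap is common here, and 2124 of the 2178 called genes showed it. Leaving out a library moved the count. It fell or rose to 708, 1185 and 2342 without Tat-Amlexanox replicate 1, 2 and 3, and 1013, 1944 and 1099 without Tat-4OI replicate 1, 2 and 3. Differences below are log2 differences of CPM + 0.5, Tat-4OI minus Tat-Amlexanox, ± standard error (n = 3 libraries a group). The error comes from 1 moderated spread per gene over the groups of all 48 libraries. It can therefore differ from the spread of the libraries printed beside it. On this scale the difference of a gene with few reads is understated.

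**Figure D1:**
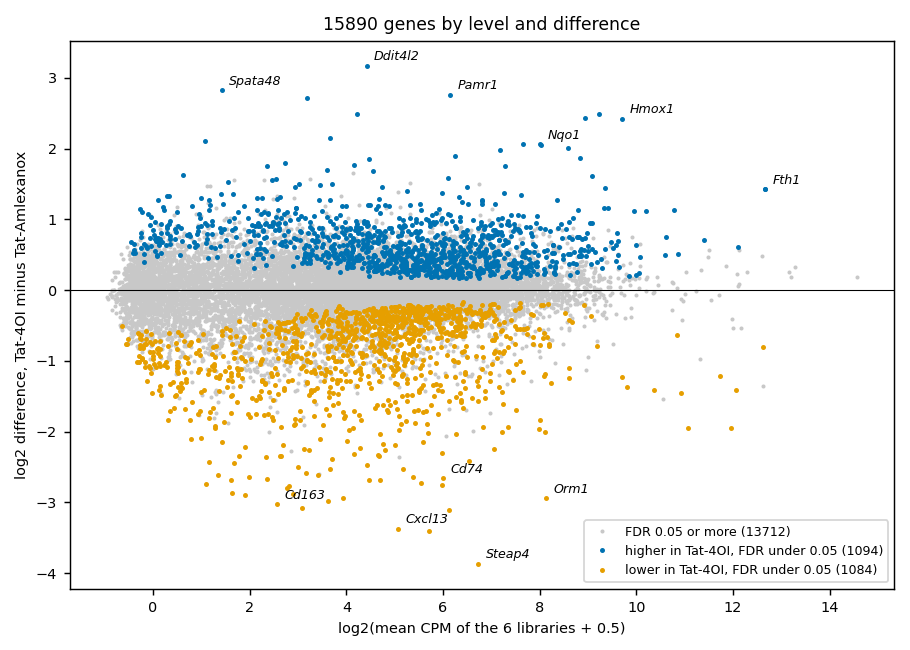
Log2 of the mean CPM of the 6 libraries + 0.5 (x axis) against the log2 difference, Tat-4OI minus Tat-Amlexanox (y axis), for the 15890 tested genes, each a point, in blue where higher and in orange where lower in Tat-4OI at an FDR under 0.05 and in grey otherwise. The 1094 genes higher and 1084 genes lower are spread over the range of levels, and the largest differences of both signs, such as those of Ddit4l2 and Steap4, lie at low to middle levels.

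Among the genes higher in Tat-4OI, the targets of Nrf2 stood out by their count. Of 26 tested, 20 were higher in Tat-4OI, against 6.88% of all genes, with a median difference of 0.86, against 0.000945 over all genes, and the count stayed at 20 whichever of the 6 libraries was left out. The median ran from 0.81 to 1.00 over all alternative settings.

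Where an antioxidant response element lay close to the gene start, it could be read from the promoter. The letters TGACNNNGC were searched on both strands in the RefSeq promoter windows of build GRCr8, which run from 250 bases before to 50 bases after the gene start. They occurred in 6 of the 22 Nrf2 targets that had a window (27.3%) and in 12.2% of all 27457 windows. A stretch around the match is printed for a glutathione synthesis gene, a glutathione transferase and an NADPH-supplying enzyme that rose, and for a peroxiredoxin with the same letters that did not pass the test, 5′ to 3′ on the gene's own strand with the match in capitals. A match is a description of these letters and not of a bound site.
Gclm (chr2:213031943-213031991, + strand): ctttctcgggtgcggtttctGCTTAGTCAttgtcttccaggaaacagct
Gstp1 (chr1:210769738-210769786, - strand): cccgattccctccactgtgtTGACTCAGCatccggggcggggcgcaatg
Me1 (chr8:96540383-96540431, - strand): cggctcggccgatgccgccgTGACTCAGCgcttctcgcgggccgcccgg
Prdx1 (chr5:135383751-135383799, + strand): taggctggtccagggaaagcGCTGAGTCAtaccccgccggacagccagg

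The match started 172, 61, 167 and 135 bases before the gene start of Gclm, Gstp1, Me1 and Prdx1, and in Gclm and Prdx1 it was on the opposite strand, so that the capitals there are the reverse complement of the letters searched.

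Glutathione is made from cystine, glutamate and glycine, and the supply genes described here were higher in Tat-4OI. Gclm, the modifier subunit of glutamate-cysteine ligase, was at 135, 95.4 and 127 CPM in Tat-4OI and 32.05, 30.9 and 31.3 CPM in Tat-Amlexanox. The groups were far apart, with the 3 amlexanox libraries within a few CPM of each other (log2 difference 1.89 ± 0.16, FDR 5.57e-10). Gclc, the catalytic subunit, was at 192, 173 and 182 CPM in Tat-4OI and 127, 111 and 113 CPM in Tat-Amlexanox. It differed less, and still without overlap (log2 difference 0.64 ± 0.10, FDR 6.94e-05). Slc7a11, the cystine importer, was at 371, 488 and 394 CPM in Tat-4OI and 102, 108 and 89.9 CPM in Tat-Amlexanox, so every 4OI library was above every amlexanox library (log2 difference 2.05 ± 0.31, FDR 1.90e-05). Its partner Slc3a2, the heavy chain that brings the transporter to the membrane, rose as well, from 367, 360.1 and 388 CPM in Tat-Amlexanox to 731, 681 and 742 CPM in Tat-4OI (log2 difference 0.95 ± 0.15, FDR 5.23e-05).

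The enzymes that use glutathione or NADPH to dispose of reactive compounds followed. Nqo1, a quinone reductase, was at 407, 421 and 421 CPM in Tat-4OI and 98.9, 109.6 and 89.6 CPM in Tat-Amlexanox. Replicates of both groups were close together (log2 difference 2.07 ± 0.18, FDR 5.57e-10). Gstp1, a glutathione transferase, was at 949, 1131 and 949 CPM in Tat-4OI and 154, 196 and 189.9 CPM in Tat-Amlexanox, a ratio of means of 5.61 (log2 difference 2.49 ± 0.30, FDR 5.53e-07). Hmox1, which degrades haem, was at 1806, 955 and 1474 CPM in Tat-4OI and 254, 246 and 262 CPM in Tat-Amlexanox. Tat-4OI replicate 2 was the lowest of its group and still far above the amlexanox libraries (log2 difference 2.42 ± 0.23, FDR 3.44e-09). Akr1b8, an aldo-keto reductase with close paralogs that reads could be split between, was at 8.03, 30.9 and 8.03 CPM in Tat-4OI and 2.003, 1.08 and 1.53 CPM in Tat-Amlexanox. Tat-4OI replicate 2 was the highest here, and the 3 amlexanox libraries were low (log2 difference 2.72 ± 0.65, FDR 0.00506). Osgin1, an oxidative stress response gene, reached 26.9, 29.3 and 25.3 CPM in Tat-4OI against 7.68, 8.27 and 6.89 CPM (log2 difference 1.77 ± 0.20, FDR 1.61e-07), and Txnrd1, the cytosolic thioredoxin reductase, 198, 307 and 225 CPM against 131, 136 and 126 CPM (log2 difference 0.87 ± 0.14, FDR 6.62e-05). Both were named after their values were seen, as were the following genes of NADPH supply and Prdx1. Prdx1, a peroxidase reduced by thioredoxin, was at 481, 503.6 and 507 CPM in Tat-4OI and 492, 421 and 370.3 CPM in Tat-Amlexanox, with overlapping groups (log2 difference 0.23 ± 0.13, FDR 0.235).

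NADPH comes from the pentose phosphate pathway and from malic enzyme. Taldo1, the transaldolase of that pathway, was at 610.0, 565 and 664 CPM in Tat-4OI and 135, 178 and 146 CPM in Tat-Amlexanox. It had one of the narrowest spreads relative to its difference (log2 difference 2.004 ± 0.16, FDR 7.95e-11). Me1, the cytosolic malic enzyme, was at 292, 185 and 262 CPM in Tat-4OI and 149, 123 and 140.2 CPM in Tat-Amlexanox. Its Tat-4OI replicate 2 was closest to the amlexanox libraries (log2 difference 0.82 ± 0.18, FDR 0.00262).

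Most regulators of Nrf2 did not pass the test, although 22.2% did, against 13.7% of all genes. Nfe2l2 itself was at 146, 158 and 159 CPM in Tat-4OI and 169, 180.0 and 152 CPM in Tat-Amlexanox, with overlapping groups (log2 difference -0.11 ± 0.13, FDR 0.589). Keap1, its inhibitor, was somewhat higher in Tat-4OI, at 107, 89.8 and 106 CPM against 70.2, 77.5 and 80.8 CPM (log2 difference 0.40 ± 0.08, FDR 0.00138), and so was Mafg, a small partner protein of Nrf2 (log2 difference 0.44 ± 0.10, FDR 0.00216). These were the 2 of 9 regulators that passed. Srxn1 was not analysed here. Of the ferritin and autophagy genes tied to Nrf2, all 3 tested were higher. Fth1, the heavy chain of the iron store ferritin, was at 8531, 10245 and 9606 CPM in Tat-4OI and 3358, 3943 and 3262 CPM in Tat-Amlexanox, without overlap (log2 difference 1.43 ± 0.17, FDR 2.56e-07). Its neighbour Best1 carried nearly the same values (8540.3, 10256 and 9617 CPM in Tat-4OI), so the reads of the pair cannot be told apart. Sqstm1, the autophagy receptor p62, was at 941, 1066 and 973 CPM in Tat-4OI and 560.0, 586 and 545 CPM in Tat-Amlexanox (log2 difference 0.81 ± 0.08, FDR 1.70e-08). Ftl1, the light chain, was below 1.5 CPM in all 6 libraries, and its call (0.65, FDR 0.0324) was lost without Tat-Amlexanox replicate 1, Tat-Amlexanox replicate 2, Tat-4OI replicate 2 and Tat-4OI replicate 3.

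**Figure D2:**
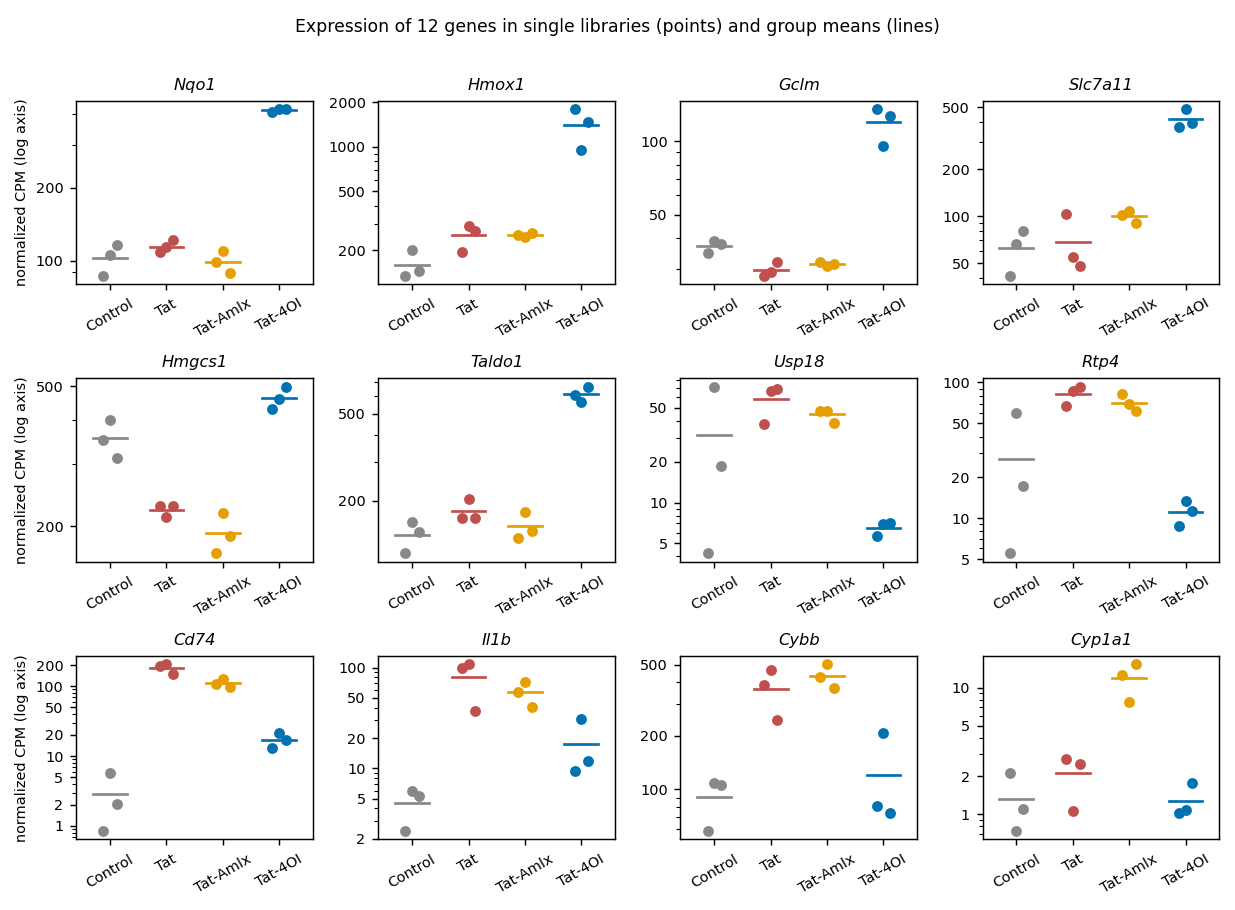
Normalized CPM on log axes for 12 genes, each panel showing the single libraries (points) and the group means (lines) of Control, Tat, Tat-Amlexanox (Tat-Amlx) and Tat-4OI cultures, 3 libraries a group. Nqo1, Hmox1, Gclm, Slc7a11, Hmgcs1 and Taldo1 are higher in every Tat-4OI library than in any Tat-Amlexanox library, Usp18, Rtp4, Cd74, Il1b, Cybb and Cyp1a1 are lower, and Cyp1a1 is the gene whose Tat-Amlexanox libraries lie above all others.

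Genes of cholesterol synthesis were higher in Tat-4OI in 14 of 19 members, against 6.88% of all genes, with a median difference of 0.65. Between 11 and 13 were called when a library was left out. Hmgcs1, which makes the precursor of mevalonate, was at 429, 458 and 498 CPM in Tat-4OI and 168, 218 and 188 CPM in Tat-Amlexanox (log2 difference 1.27 ± 0.16, FDR 7.45e-07). The groups lay well apart. Cyp51 and Msmo1, which remove methyl groups from lanosterol, differed by 1.04, FDR 1.07e-05 and 1.02, FDR 1.47e-05. The whole list ran from 0.16 to 1.27 on the log2 scale, so no tested member was lower in Tat-4OI.

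Some genes of sugar metabolism, chaperones and immediate-early genes were called higher as well, against 6.88% of all genes. The median difference was 0.39 for glycolysis genes, 0.15 for tricarboxylic acid cycle genes and 0.15 for chaperones. For immediate-early genes it was -0.0006, with 12.5% called against 13.7% of all genes in either direction, so that list as a whole was not higher. Of 17 glycolysis genes 6 were higher, a count that was 1, 5 and 8 when Tat-Amlexanox replicate 1, 2 or 3 was left out and 2, 8 and 2 when Tat-4OI replicate 1, 2 or 3 was left out. The glucose transporter Slc2a1 was at 323, 234 and 317 CPM in Tat-4OI and 152, 165 and 191 CPM in Tat-Amlexanox, did not overlap and kept its call without any 1 library (log2 difference 0.77 ± 0.18, FDR 0.00489). Of 17 tricarboxylic acid cycle genes 3 were higher, and the count was 1, 2 and 2 when Tat-Amlexanox replicate 1, 2 or 3 was left out and 2, 5 and 2 when Tat-4OI replicate 1, 2 or 3 was left out. Of the 13 heat shock and chaperone genes 4 were higher, and 2 without Tat-Amlexanox replicate 1. Hspd1, the mitochondrial chaperonin, was nearly constant inside each group at 289, 273 and 281 CPM in Tat-4OI and 214, 214 and 214 CPM in Tat-Amlexanox (log2 difference 0.39 ± 0.06, FDR 1.00e-05). Hspb8, a small heat shock protein, differed by 0.63, FDR 3.58e-04. Of 16 immediate-early genes, Fosl1 (1.16, FDR 2.62e-04) and Jun (0.38, FDR 0.00689) were higher, both of them subunits of the transcription factor AP-1, and in each leave-out the count was 2.

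The 12 largest rises by the rule for named genes were led by genes outside these lists. Ddit4l2, related to an inhibitor of mTOR signalling, was at 48.5, 29.8 and 35.6 CPM in Tat-4OI and 3.12, 4.11 and 3.88 CPM in Tat-Amlexanox. Its lowest Tat-4OI library was far above the highest amlexanox library (log2 difference 3.17 ± 0.32, FDR 9.36e-09). Spata48 was at 3.10, 5.65 and 3.94 CPM in Tat-4OI and 0.167, 0.154 and 0.131 CPM in Tat-Amlexanox, and so was near the detection limit with amlexanox (log2 difference 2.83 ± 0.26, FDR 1.46e-09). Pamr1, a secreted protease-like protein, was at 123, 110.4 and 135 CPM in Tat-4OI and 13.1, 20.6 and 20.45 CPM in Tat-Amlexanox (log2 difference 2.76 ± 0.37, FDR 4.08e-06). Igfbp5, which binds insulin-like growth factors, was at 979.9, 738 and 753 CPM in Tat-4OI and 111, 191 and 160.5 CPM in Tat-Amlexanox (log2 difference 2.43 ± 0.35, FDR 9.68e-06). The extracellular matrix glycoprotein tenascin C (Tnc) was at 273, 387 and 312 CPM in Tat-4OI and 61.4, 103 and 70.3 CPM in Tat-Amlexanox (log2 difference 2.06 ± 0.30, FDR 1.13e-05). Mmp3, a matrix metalloproteinase, rose from 0.195, 0.282 and 0.327 CPM to 1.87, 3.98 and 2.92 CPM (log2 difference 2.11 ± 0.49, FDR 0.00453), and Slc16a6, a monocarboxylate transporter family member, from 3.45, 5.29 and 3.27 CPM to 15.2, 29.5 and 15.7 CPM (log2 difference 2.16 ± 0.48, FDR 0.00278). Akr1b8, Gstp1, Hmox1, Nqo1 and Slc7a11, described above, completed the 12.

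Among the genes lower in Tat-4OI, the interferon-stimulated genes formed the largest group. Of 32 tested, 19 were lower in Tat-4OI, against 6.82% of all genes, with a median of -1.39. The count was 11, 13 and 18 when Tat-Amlexanox replicate 1, 2 or 3 was left out and 12, 17 and 15 when Tat-4OI replicate 1, 2 or 3 was left out. Over all alternatives the median ran from -1.63 to -1.23. These genes respond to type I interferon through a transcription factor complex whose binding sites are interferon-stimulated response elements. The summed level of 19 pan-myeloid genes moved with the groups, at 1747, 3614 and 1484 CPM in Tat-4OI and 5198, 6397 and 4119.7 CPM in Tat-Amlexanox, and in bulk RNA fewer cells of a type and less RNA per cell cannot be told apart. Its part in the differences of this and the following immune lists was not tested.

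The interferon-stimulated response element, searched on both strands as GAAA followed by any 2 bases and again GAAA, was found in the promoter windows of 15 interferon-stimulated genes. Only 23 of the 32 genes had a window, under 80%, so the share among them is not compared with the 3.77% of all windows that hold it. Windows are shown for genes of this list that fell, from the same build and written in the same way.
Oas1a (chr12:41330405-41330454, + strand): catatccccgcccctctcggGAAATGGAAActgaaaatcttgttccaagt
Oasl2 (chr12:47383307-47383356, - strand): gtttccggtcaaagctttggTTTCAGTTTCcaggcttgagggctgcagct
Parp14 (chr11:78408038-78408087, + strand): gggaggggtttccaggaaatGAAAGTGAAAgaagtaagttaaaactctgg
Ifi44 (chr2:243303841-243303886, - strand): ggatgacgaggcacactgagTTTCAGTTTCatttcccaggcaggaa

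The match started 41, 151, 76 and 26 bases before the gene start of Oas1a, Oasl2, Parp14 and Ifi44. In Oasl2 and Ifi44 it was on the opposite strand and so begins with TTTC, and in Oas1a another, overlapping match started 35 bases before the gene start.

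Usp18, which removes the ubiquitin-like protein Isg15 from its targets, was at 5.67, 6.88 and 7.05 CPM in Tat-4OI and 47.5, 47.5 and 38.9 CPM in Tat-Amlexanox. Replicates agreed closely in both groups (log2 difference -2.68 ± 0.63, FDR 0.00453). Rtp4, an interferon-induced transmembrane protein, was at 8.72, 13.3 and 11.2 CPM in Tat-4OI and 82.4, 68.9 and 61.9 CPM in Tat-Amlexanox (log2 difference -2.64 ± 0.54, FDR 0.00137). Oas1a, a sensor of double-stranded RNA from a family of close copies between which reads could be split, was at 6.31, 5.73 and 6.03 CPM in Tat-4OI and 39.2, 37.8 and 30.4 CPM in Tat-Amlexanox (log2 difference -2.47 ± 0.62, FDR 0.00759). Isg15 was at 8.08, 9.30 and 9.93 CPM in Tat-4OI and 47.7, 42.4 and 45.7 CPM in Tat-Amlexanox, so all amlexanox libraries were several times above the 4OI libraries (log2 difference -2.26 ± 0.58, FDR 0.00914). Mx2, an antiviral GTPase, and Oasl2, both named after their values were seen, differed by -2.01, FDR 0.00289 and -2.31, FDR 0.00107, as did Ifi44 (-1.24, FDR 0.00926), whose call was lost without Tat-Amlexanox replicate 1. Oas2 was at 2.62, 3.33 and 1.61 CPM in Tat-4OI and 16.7, 22.4 and 14.2 CPM in Tat-Amlexanox, and its call (-2.61, FDR 0.0208) was lost without Tat-Amlexanox replicate 1, Tat-Amlexanox replicate 2, Tat-4OI replicate 1 and Tat-4OI replicate 3. Irf7, the interferon-induced regulatory factor, stood at the threshold (log2 difference -1.69 ± 0.59, FDR 0.04998) with 113, 57.8 and 91.2 CPM in Tat-4OI and 352, 259 and 224 CPM in Tat-Amlexanox, and the call was lost whichever library was left out. Ifit3, named after its value was seen, missed the threshold (log2 difference -2.36 ± 0.83, FDR 0.0512) at 8.88, 8.98 and 14.2 CPM against 64.2, 55.3 and 48.7 CPM. Ifit3 also missed it in 14 of 21 alternative settings, among them every leave-out. It passed in the others, among them the replicate block and the fit to the groups compared. Ifit1 was not tested, being at or near 0.

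In the TBK1 and IKK-epsilon complex with its adaptors, 6 of 16 genes were lower in Tat-4OI (median -0.63), against 6.82% of all genes. The count was 4, 4 and 7 when Tat-Amlexanox replicate 1, 2 or 3 was left out and 4, 7 and 3 when Tat-4OI replicate 1, 2 or 3 was left out. Tbk1 itself, a kinase inhibited by amlexanox, was at 45.3, 39.2 and 39.9 CPM in Tat-4OI and 43.3, 43.3 and 40.9 CPM in Tat-Amlexanox. The groups overlapped, and the difference was small (log2 difference -0.04 ± 0.07, FDR 0.743). Ikbke, which encodes the other of the kinases, was at 3.05, 5.65 and 4.77 CPM in Tat-4OI and 12.3, 14.8 and 12.4 CPM in Tat-Amlexanox. The highest Tat-4OI library was below the lowest Tat-Amlexanox library (log2 difference -1.49 ± 0.24, FDR 8.33e-05). Ddx58, the RNA sensor RIG-I upstream of these kinases, was at 20.1, 22.6 and 21.1 CPM in Tat-4OI and 51.5, 47.96 and 48.3 CPM in Tat-Amlexanox (log2 difference -1.19 ± 0.23, FDR 5.55e-04). Tlr4 was at 4.17, 7.15 and 3.07 CPM against 12.9, 16.1 and 11.1 CPM (log2 difference -1.45 ± 0.35, FDR 0.00581), a call lost without Tat-4OI replicate 3, and its adaptor Ticam2 (-0.82, FDR 0.0363) was not called without Tat-Amlexanox replicate 1, Tat-Amlexanox replicate 2, Tat-4OI replicate 1 and Tat-4OI replicate 3. Irf3, the factor these kinases phosphorylate, differed by log2 difference -0.18 ± 0.14, FDR 0.380.

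Cytokines and chemokines gave 5 lower members each, of 18 and of 22 tested, against 6.82% of all genes, with medians of -0.62 and -1.09. The cytokine count was 3, 3 and 6 when Tat-Amlexanox replicate 1, 2 or 3 was left out and 3, 7 and 3 when Tat-4OI replicate 1, 2 or 3 was left out. The chemokine count was 3, 4 and 5 when Tat-Amlexanox replicate 1, 2 or 3 was left out and 3, 6 and 4 when Tat-4OI replicate 1, 2 or 3 was left out. Il1a was at 1.66, 3.602 and 1.02 CPM in Tat-4OI and 9.40, 8.63 and 5.63 CPM in Tat-Amlexanox, without overlap (log2 difference -1.79 ± 0.40, FDR 0.00314). Il1b was at 9.31, 30.6 and 11.8 CPM in Tat-4OI and 56.7, 72.6 and 41.1 CPM in Tat-Amlexanox, with Tat-4OI replicate 2 nearest to the amlexanox libraries (log2 difference -1.84 ± 0.50, FDR 0.0138), and its call was lost without Tat-Amlexanox replicate 1, Tat-Amlexanox replicate 2, Tat-4OI replicate 1 and Tat-4OI replicate 3. Il1rn, which encodes the antagonist of the same receptor, fell with them (-1.89, FDR 0.0177) and was not called without Tat-Amlexanox replicate 2, Tat-4OI replicate 1 and Tat-4OI replicate 3. Ebi3, a subunit of interleukins 27 and 35, was at 22.96, 29.1 and 10.3 CPM in Tat-4OI and 49.0, 53.3 and 61.3 CPM in Tat-Amlexanox (log2 difference -1.49 ± 0.26, FDR 2.31e-04). Il6 was at 0.910, 3.44 and 2.38 CPM in Tat-4OI and 3.45, 3.80 and 2.40 CPM in Tat-Amlexanox and did not pass (log2 difference -0.54 ± 0.52, FDR 0.492). Tnf and Nos2 were not tested, as they were at or near 0.

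Cxcl13, which attracts B cells, was at 9.52, 2.47 and 4.48 CPM in Tat-4OI and 26.9, 88.4 and 67.5 CPM in Tat-Amlexanox. It was among the largest falls of all (log2 difference -3.38 ± 0.53, FDR 4.50e-05). Ccl20, which attracts cells bearing Ccr6, was at 4.66, 12.96 and 7.10 CPM in Tat-4OI and 42.5, 54.6 and 28.3 CPM in Tat-Amlexanox (log2 difference -2.34 ± 0.54, FDR 0.00387). Ccl22, a macrophage-derived chemokine, was at 0, 0 and 0.146 CPM in Tat-4OI and 4.28, 2.52 and 2.83 CPM in Tat-Amlexanox, so 2 of the Tat-4OI libraries held no read of it (log2 difference -2.74 ± 0.48, FDR 2.30e-04). Cxcl6, a neutrophil attractant, was at 2.03, 22.5 and 7.78 CPM in Tat-4OI and 117, 121 and 39.2 CPM in Tat-Amlexanox. The groups did not overlap, but Tat-4OI replicate 2 and Tat-Amlexanox replicate 3 approached each other (log2 difference -3.40 ± 0.86, FDR 0.00830), and the call was lost without Tat-Amlexanox replicate 1 and Tat-4OI replicate 1. Ccl3 (-1.14, FDR 0.136), Ccl5 (-0.28, FDR 0.808) and Cxcl10 (-0.13, FDR 0.941) did not pass. Cxcl10 was at 14.3, 39.1 and 20.53 CPM in Tat-4OI and 22.03, 31.5 and 21.8 CPM in Tat-Amlexanox, with complete overlap.

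Of 27 NF-kB subunits, inhibitors and targets, 8 were lower (median -0.77), against 6.82% of all genes. The count was 5, 4 and 10 when Tat-Amlexanox replicate 1, 2 or 3 was left out and 3, 13 and 4 when Tat-4OI replicate 1, 2 or 3 was left out. Orm1, an acute-phase protein, was at 31.1, 76.2 and 98.5 CPM in Tat-4OI and 515, 608 and 345 CPM in Tat-Amlexanox (log2 difference -2.94 ± 0.62, FDR 0.00186). Tnip3, an inhibitor of NF-kB signalling, was at 0.107, 0.376 and 0.487 CPM in Tat-4OI and 4.84, 5.91 and 3.53 CPM in Tat-Amlexanox (log2 difference -2.68 ± 0.45, FDR 1.16e-04). Selp, the adhesion molecule P-selectin, was at 0.161, 0.108 and 0 CPM in Tat-4OI and 1.78, 0.924 and 1.66 CPM in Tat-Amlexanox (log2 difference -1.71 ± 0.32, FDR 4.58e-04), and Slpi, a secreted protease inhibitor (-2.19, FDR 0.0120), lost its call without Tat-Amlexanox replicate 2, Tat-4OI replicate 1 and Tat-4OI replicate 3. Nfkbia, the inhibitor IkB-alpha, did not pass (log2 difference -0.65 ± 0.31, FDR 0.146). Acod1, the enzyme that makes itaconate, was at 0.535, 3.39 and 1.70 CPM in Tat-4OI and 8.46, 22.03 and 4.54 CPM in Tat-Amlexanox. The groups did not overlap, and the difference missed the threshold (log2 difference -2.28 ± 0.82, FDR 0.0586), but passed without Tat-Amlexanox replicate 3 (FDR 0.0386), without Tat-4OI replicate 2 (FDR 0.0467), with the replicate block and in the fit to 18 libraries.

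The MHC class II genes, which present antigen, were lower in 7 of 8 (median -1.73), against 6.82% of all genes. The count was 6, 4 and 5 when Tat-Amlexanox replicate 1, 2 or 3 was left out and 5, 6 and 4 when Tat-4OI replicate 1, 2 or 3 was left out. Cd74, the invariant chain, was at 13.1, 21.02 and 17.2 CPM in Tat-4OI and 106, 125 and 97.7 CPM in Tat-Amlexanox (log2 difference -2.66 ± 0.67, FDR 0.00817). Ciita, the factor that switches these genes on, was at 0.161, 0.806 and 0.487 CPM in Tat-4OI and 2.39, 5.19 and 2.44 CPM in Tat-Amlexanox (log2 difference -1.94 ± 0.44, FDR 0.00314). RT1-Db1 (-2.35, FDR 3.74e-04) and RT1-Da (-1.91, FDR 0.00819), chains of the class II molecule, fell by like amounts, although reads of the RT1 genes may be split between near copies. In contrast, none of the 11 MHC class I loading genes passed in limma (1 at an unadjusted p under 0.05), with differences of -0.72 to -0.14.

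Of 17 complement genes 7 were lower (median -0.95), against 6.82% of all genes. The count was 2, 1 and 6 when Tat-Amlexanox replicate 1, 2 or 3 was left out and 1, 8 and 4 when Tat-4OI replicate 1, 2 or 3 was left out. C4b was at 1.52, 2.02 and 2.07 CPM in Tat-4OI and 7.98, 9.01 and 5.63 CPM in Tat-Amlexanox and was called in every leave-out (log2 difference -1.75 ± 0.39, FDR 0.00287). Cfb, a component of the alternative pathway, was at 910.2, 2392 and 1800.3 CPM in Tat-4OI and 5506, 8113 and 5085 CPM in Tat-Amlexanox. The groups did not overlap (log2 difference -1.95 ± 0.54, FDR 0.0153), and its call was lost without Tat-Amlexanox replicate 1, Tat-Amlexanox replicate 2 and Tat-4OI replicate 1. Serping1, the C1 inhibitor, differed by -1.45, FDR 0.0155 and lost its call without Tat-Amlexanox replicate 2 and Tat-4OI replicate 1, and Cfp, properdin, by -1.58, FDR 0.0430, lost without Tat-Amlexanox replicate 1, Tat-Amlexanox replicate 2, Tat-Amlexanox replicate 3, Tat-4OI replicate 1 and Tat-4OI replicate 3.

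Markers of myeloid cells were lower too. Of 19 pan-myeloid genes 7 were lower in Tat-4OI (median -1.08), against 6.82% of all genes. The count was 1, 2 and 7 when Tat-Amlexanox replicate 1, 2 or 3 was left out and 2, 9 and 1 when Tat-4OI replicate 1, 2 or 3 was left out. Cybb, the catalytic subunit of the phagocyte NADPH oxidase, was at 80.2, 205 and 73.8 CPM in Tat-4OI and 428, 501 and 369 CPM in Tat-Amlexanox (log2 difference -2.003 ± 0.41, FDR 0.00125). Tat-4OI replicate 2 stood above the other libraries of its group here and in most myeloid genes. Csf1r, the receptor on which microglia depend, was at 166, 278 and 104 CPM in Tat-4OI and 394, 500.4 and 370.4 CPM in Tat-Amlexanox (log2 difference -1.31 ± 0.39, FDR 0.0230), and the call was lost without Tat-Amlexanox replicate 1, Tat-Amlexanox replicate 2, Tat-4OI replicate 1 and Tat-4OI replicate 3. Aif1 was at 53.7, 147 and 46.8 CPM in Tat-4OI and 141, 222 and 112 CPM in Tat-Amlexanox, with overlap between the groups (log2 difference -1.08 ± 0.60, FDR 0.218). Ncf1, another oxidase subunit, differed by -1.93, FDR 0.0137 and was not called without Tat-Amlexanox replicate 1 and Tat-4OI replicate 3, and Rac2 (-1.36, FDR 0.0291) was not called without Tat-Amlexanox replicate 1, Tat-Amlexanox replicate 2, Tat-4OI replicate 1 and Tat-4OI replicate 3.

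Genes that mark border macrophages of the meninges and vessels were lower in 9 of 10, against 6.82% of all genes. Their median of -2.17 was the lowest of the lists examined. The count was 5, 8 and 7 when Tat-Amlexanox replicate 1, 2 or 3 was left out and 6, 9 and 3 when Tat-4OI replicate 1, 2 or 3 was left out. Their summed level was 208, 435 and 119 CPM in Tat-4OI and 909, 886 and 695 CPM in Tat-Amlexanox. Cd163, the scavenger receptor for haemoglobin, was at 0.428, 1.67 and 0.487 CPM in Tat-4OI and 9.85, 7.19 and 13.04 CPM in Tat-Amlexanox (log2 difference -3.03 ± 0.62, FDR 0.00137). Lyve1, a hyaluronan receptor, was at 12.5, 24.1 and 4.52 CPM in Tat-4OI and 99.1, 75.3 and 61.3 CPM in Tat-Amlexanox (log2 difference -2.73 ± 0.44, FDR 6.62e-05). Ms4a7 was at 2.14, 7.63 and 2.34 CPM in Tat-4OI and 13.9, 30.1 and 19.5 CPM in Tat-Amlexanox (log2 difference -2.39 ± 0.55, FDR 0.00401). The endocytic receptors Mrc1 and Stab1, named after their values were seen, differed by -1.61, FDR 0.0108 and -1.96, FDR 0.00453. The call of Mrc1 was lost without Tat-Amlexanox replicate 1, Tat-Amlexanox replicate 2 and Tat-4OI replicate 3 and that of Stab1 without Tat-4OI replicate 3. Among 11 homeostatic microglia genes, Olfml3 was the member to pass (-1.70, FDR 0.0121), and it was not called without Tat-Amlexanox replicate 1 and Tat-4OI replicate 1. The median of that list was -0.59, with differences from -1.70 to 0.03, and 9.09% were called against 13.7% of all genes. The count was 3 with the replicate block, 4 in the fit to the groups compared and 7 with both. P2ry12, the purine receptor typical of resting microglia, was at 6.85, 11.4 and 5.04 CPM in Tat-4OI and 10.8, 16.2 and 9.11 CPM in Tat-Amlexanox and did not pass (log2 difference -0.64 ± 0.58, FDR 0.471). Of 16 disease-associated microglia genes, Apoe (-0.80, FDR 0.00323) and Clec7a (-1.27, FDR 0.00485) were lower, the latter not without Tat-Amlexanox replicate 1, and the median of the list was 0.08. The share called was 12.5%, against 13.7% of all genes in either direction, so that list as a whole was not lower.

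Of 15 genes for prostaglandins, leukotrienes and phospholipases A2, 8 were lower (median -1.01), against 6.82% of all genes. The count was 4, 4 and 8 when Tat-Amlexanox replicate 1, 2 or 3 was left out and 5, 8 and 4 when Tat-4OI replicate 1, 2 or 3 was left out. Pla2g4a, which releases arachidonic acid from membranes, was at 9.85, 19.4 and 10.1 CPM in Tat-4OI and 44.7, 42.5 and 32.6 CPM in Tat-Amlexanox (log2 difference -1.63 ± 0.32, FDR 8.22e-04). Hpgds, which makes prostaglandin D and is found in microglia, was at 7.76, 16.1 and 5.69 CPM in Tat-4OI and 45.6, 53.1 and 31.2 CPM in Tat-Amlexanox (log2 difference -2.18 ± 0.45, FDR 0.00160). Pla2g2a, a secreted phospholipase, varied most inside the amlexanox group, at 6.68, 11.8 and 0.959 CPM (log2 difference -2.64 ± 0.84, FDR 0.0321), and was not called without Tat-Amlexanox replicate 1, Tat-Amlexanox replicate 2, Tat-4OI replicate 1 and Tat-4OI replicate 3. Of 17 phosphodiesterases, Pde5a (-0.91, FDR 0.00539) and Pde7b (-0.63, FDR 0.0234) were lower, Pde7b not without Tat-Amlexanox replicate 1, Tat-Amlexanox replicate 3, Tat-4OI replicate 2 and Tat-4OI replicate 3. The share called was 11.8%, against 13.7% of all genes in either direction, and the list median was 0.14, so the phosphodiesterases as a whole were not lower. Pde4b, a phosphodiesterase of the family that amlexanox is known to inhibit, did not pass (log2 difference -0.46 ± 0.25, FDR 0.214). S100a8, a subunit of the inflammatory protein calprotectin, was at 0.910, 3.44 and 1.26 CPM in Tat-4OI and 7.07, 9.35 and 4.62 CPM in Tat-Amlexanox (log2 difference -1.76 ± 0.40, FDR 0.00310).

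The remaining large falls named by the rule were of varied function. Steap4, a metalloreductase, was at 4.12, 36.7 and 10.8 CPM in Tat-4OI and 229.6, 248 and 105 CPM in Tat-Amlexanox. This was the largest fall, and the Tat-4OI libraries differed widely among themselves (log2 difference -3.87 ± 0.78, FDR 0.00104). Cyp4f4, a fatty acid hydroxylase, was at 0.749, 1.88 and 1.31 CPM in Tat-4OI and 16.2, 16.1 and 11.3 CPM in Tat-Amlexanox (log2 difference -3.08 ± 0.51, FDR 8.88e-05). Jaml, a leukocyte adhesion protein, was at 0.749, 2.47 and 0.924 CPM in Tat-4OI and 14.3, 12.4 and 10.5 CPM in Tat-Amlexanox (log2 difference -2.88 ± 0.46, FDR 5.75e-05). Slc6a12, a betaine transporter, was at 0.482, 0.161 and 0.389 CPM in Tat-4OI and 9.46, 3.44 and 5.54 CPM in Tat-Amlexanox (log2 difference -2.89 ± 0.56, FDR 6.55e-04). Plet1 fell from 11.6, 16.9 and 5.63 CPM to 0.428, 2.53 and 0.876 CPM (log2 difference -2.79 ± 0.67, FDR 0.00556). The sodium pump regulator Fxyd2 (-2.98, FDR 0.00748) was uneven with amlexanox, at 39.7, 4.88 and 20.9 CPM, and lost its call without Tat-Amlexanox replicate 1. Slfn4 of the schlafen family, whose members are close copies, fell from 25.8, 24.1 and 29.6 CPM to 2.51, 3.47 and 3.11 CPM (log2 difference -2.94 ± 0.81, FDR 0.0149), not without Tat-Amlexanox replicate 1 and Tat-4OI replicate 1.

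Markers of other cells passed at shares on both sides of the 13.7% of all genes. The share was 14.3% for neuronal, 6.67% for astrocyte and 18.2% for endothelial, pericyte and fibroblast genes. The median difference of the neuronal genes was 0.44. Of 21 neuronal genes, Syt1, Grin1 and Uchl1 were higher in Tat-4OI (0.95, FDR 0.0371, 0.92, FDR 0.0250 and 0.87, FDR 0.0102), and the count was 0, 1 and 3 when Tat-Amlexanox replicate 1, 2 or 3 was left out and 1, 1 and 1 when Tat-4OI replicate 1, 2 or 3 was left out. The summed neuronal level was 5630.1, 4726 and 5318 CPM in Tat-4OI and 2933, 3353 and 4256 CPM in Tat-Amlexanox, without overlap. Map2, a dendritic protein, differed by log2 difference 0.40 ± 0.23, FDR 0.229. Of 15 astrocyte genes, the glutamate transporter Slc1a2 was higher, at 101, 97.6 and 99.8 CPM in Tat-4OI and 50.5, 50.9 and 61.1 CPM in Tat-Amlexanox (log2 difference 0.88 ± 0.20, FDR 0.00418), and Gfap was at 4139, 3970.1 and 5297 CPM in Tat-4OI and 4878, 4148 and 3841 CPM in Tat-Amlexanox, with overlapping groups (log2 difference 0.05 ± 0.26, FDR 0.902). Of the 15 oligodendrocyte genes none passed in limma, nor at an unadjusted p under 0.05 (0 genes). In the list of endothelial, pericyte and fibroblast genes, the pericyte receptor Pdgfrb was lower (log2 difference -1.20 ± 0.25, FDR 0.00161) and fibronectin (Fn1) was higher (1.16, FDR 0.0128), the latter not without Tat-Amlexanox replicate 3 and Tat-4OI replicate 2. Of 15 ATF4 stress genes 2 were higher and 1 lower (median 0.12), of 11 matrix metalloproteinases and inhibitors 2 were higher, and of 9 S100 genes S100a8 was lower. The shares called were 20%, 18.2% and 11.1%, against 13.7% of all genes. The medians of the metalloproteinase and S100 lists were 0.04 and -0.30. No motile cilium gene of 14 was called in limma (2 at an unadjusted p under 0.05). Of 18 cell cycle genes, Mki67 passed (-1.50, FDR 0.0301), and was not called without Tat-Amlexanox replicate 1, Tat-Amlexanox replicate 2, Tat-4OI replicate 1 and Tat-4OI replicate 3. The share called was 5.56%, but the median of the list was -0.81, with differences from -1.50 to 0.20. Over all alternative settings that median ran from -1.40 to -0.33.

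**Figure D3:**
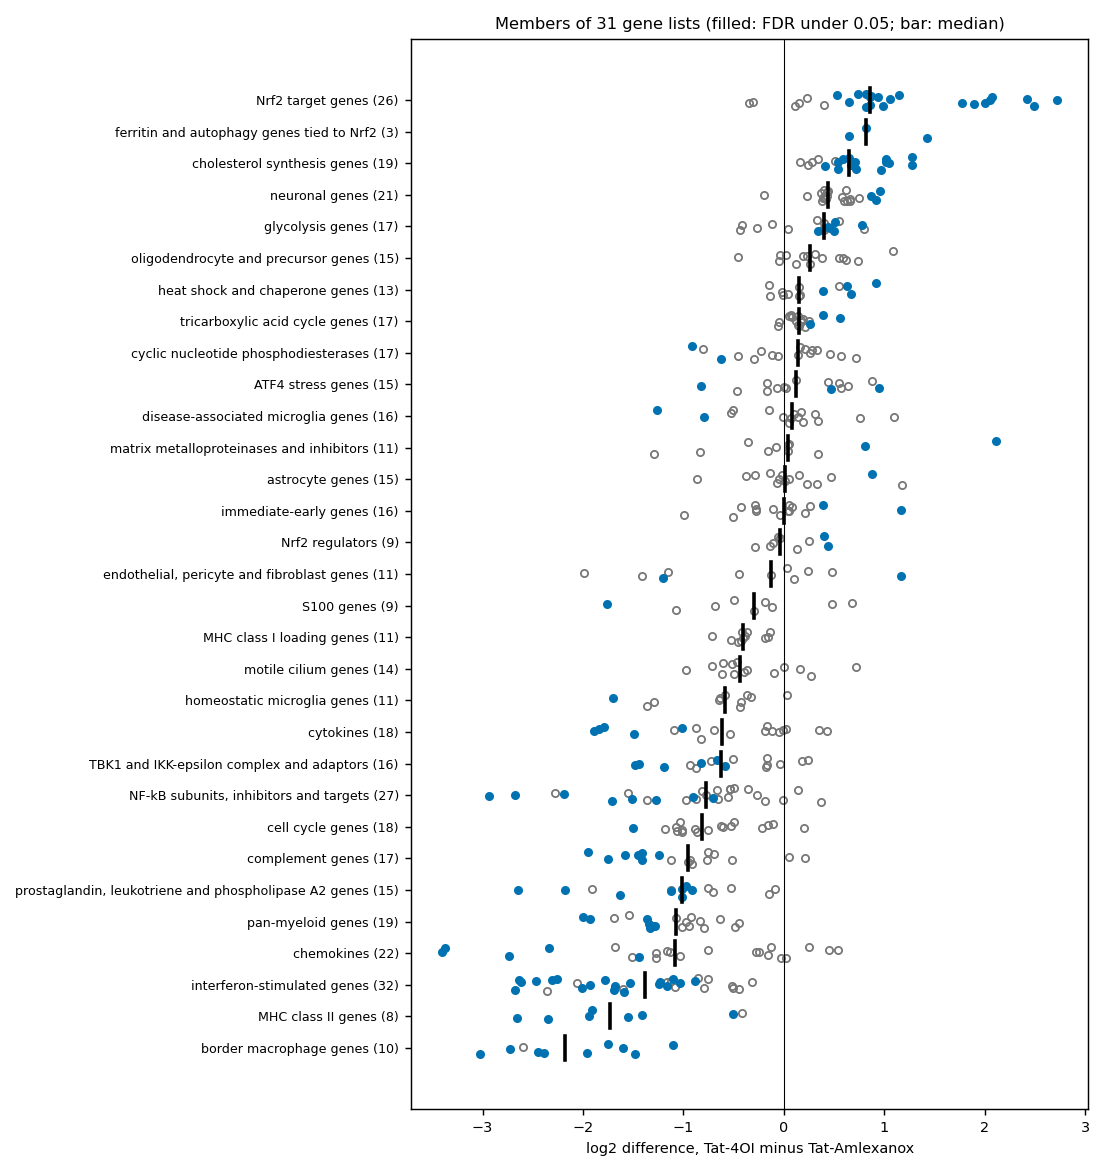
Log2 difference, Tat-4OI minus Tat-Amlexanox (x axis), of each tested member (circles) of 31 gene lists (rows, with the number tested), filled where the FDR was under 0.05 and open otherwise, with the list median as a black bar. The medians of the Nrf2 target and cholesterol synthesis lists lie above 0 at 0.86 and 0.65, and that of the border macrophage list lies lowest at -2.17.

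The levels with each compound were also set beside those of cultures given Tat alone. The Tat libraries are shared by both of these comparisons, so their values are given side by side only. Between Tat-4OI and Tat 2475 genes (15.6%) differed, 969 higher (6.1%) and 1506 lower (9.48%), and between Tat-Amlexanox and Tat 133 genes (0.837%) differed, 64 of them up and 69 down in Tat-Amlexanox. Without adjustment 1988 genes had a p under 0.05 there. Of the 26 Nrf2 targets, 19 rose in Tat-4OI against Tat with a list median of 0.82, and with amlexanox the median was -0.05. Hmox1 was at 194, 291 and 272 CPM in Tat, and differed from it by 2.45 ± 0.23 with 4OI (FDR 2.48e-09) and by 0.03 ± 0.23 with amlexanox (FDR 0.981). Of the 32 interferon-stimulated genes, 26 fell with 4OI, median -1.79, and the median with amlexanox was -0.25. Usp18 was at 37.7, 66.6 and 69.2 CPM in Tat and differed from it by -3.01 ± 0.63 (FDR 0.00108) and -0.33 ± 0.63 (FDR 0.903). All 8 MHC class II genes fell with 4OI, median -2.81, and the amlexanox median was -0.92, with 5 of the 8 at an unadjusted p under 0.05 in limma and none past the FDR threshold. The chemokine medians were -1.93 with 13 of 22 lower, and -0.87. For border macrophage genes the medians were -1.54 with 6 of 10 lower, and 0.70, with 0 of the 10 called in limma with amlexanox (3 at an unadjusted p under 0.05). Acod1 was at 47.5, 92.2 and 8.75 CPM in Tat, and its differences were -4.06 ± 0.82 with 4OI (FDR 8.23e-04) and -1.78 ± 0.82 with amlexanox (FDR 0.355).

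Some of the 133 genes that differed between Tat-Amlexanox and Tat are named here, chosen after their values were seen. Cyp1a1, a cytochrome that the aryl hydrocarbon receptor induces, was at 2.74, 1.06 and 2.51 CPM in Tat and 12.6, 7.75 and 15.3 CPM in Tat-Amlexanox, a difference of 2.27 ± 0.48 (FDR 0.0217). In Tat-4OI it was at 1.02, 1.08 and 1.75 CPM, so that it differed between the compounds (log2 difference -2.77 ± 0.48, FDR 1.99e-04). Cyp1b1, another target of that receptor, is given beside Cyp1a1 and was not one of the 133 genes. Its level was 35.3, 54.7 and 48.3 CPM in Tat-4OI and 247, 206 and 200.2 CPM in Tat-Amlexanox (log2 difference -2.25 ± 0.36, FDR 6.46e-05), with 176, 147 and 86.7 CPM in Tat. The T-cell chemokine Ccl19 was at 8.72, 39.9 and 67.0 CPM in Tat and lower with amlexanox, 1.72, 2.88 and 3.05 CPM (-3.29 ± 0.75, FDR 0.0276), and was at 4.07, 3.55 and 3.94 CPM with 4OI. Ptges, which makes prostaglandin E, was at 31.8, 54.2 and 43.8 CPM in Tat, 5.06, 12.99 and 5.76 CPM with amlexanox (-2.46 ± 0.56, FDR 0.0282) and 1.18, 4.89 and 1.56 CPM with 4OI. Retn, resistin, was at 5.02, 9.20 and 7.42 CPM in Tat, 1.92, 4.11 and 2.14 CPM with amlexanox (-1.28 ± 0.25, FDR 0.0170) and 0.107, 0.538 and 0.0973 CPM with 4OI, and differed between the compounds as well (log2 difference -2.10 ± 0.25, FDR 3.80e-07).

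**Figure D4:**
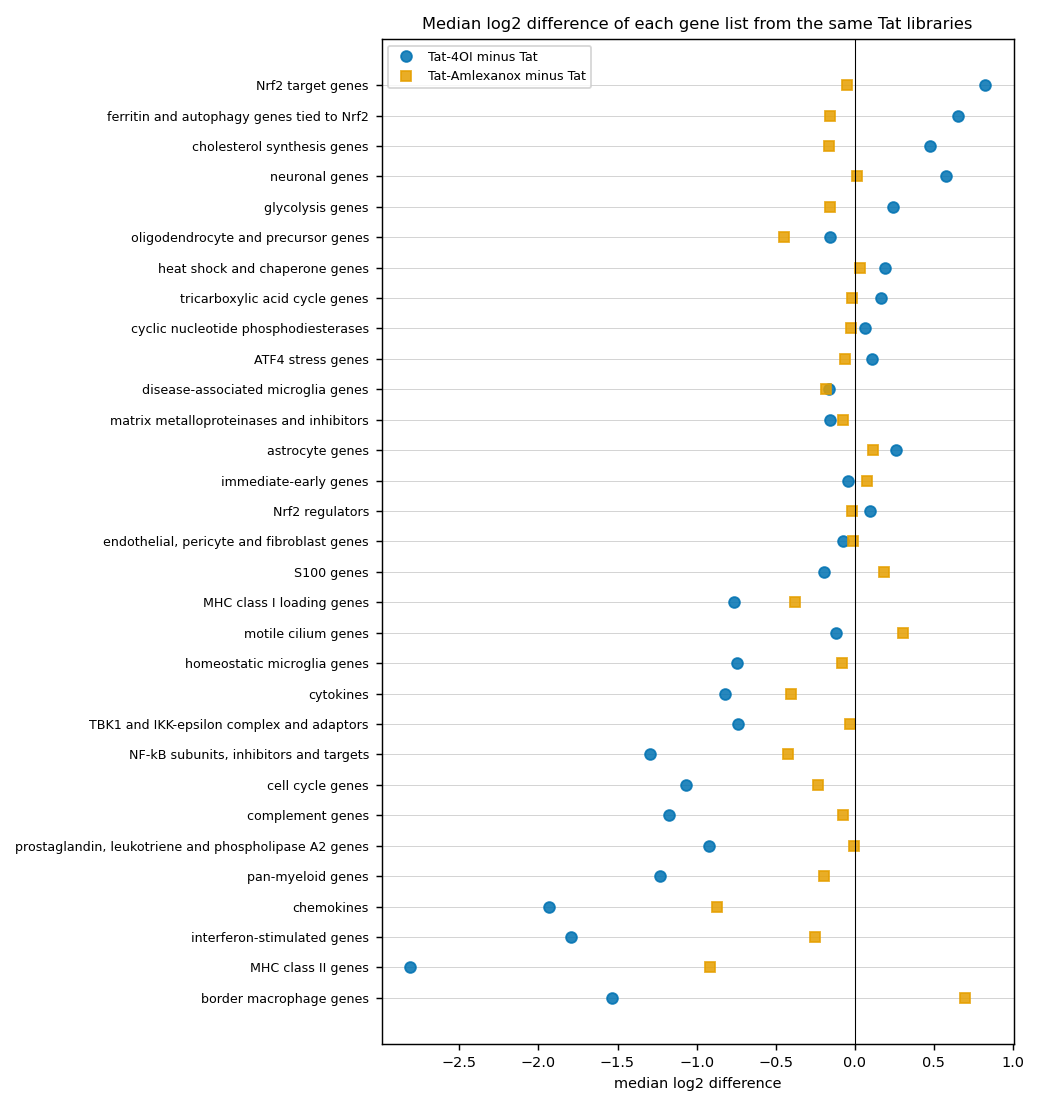
Median log2 difference from Tat (x axis) over the tested members of each gene list (rows), for Tat-4OI (blue circles) and Tat-Amlexanox (orange squares), both taken from the same Tat libraries. The Nrf2 targets lie at 0.82 with 4OI and -0.05 with amlexanox, the MHC class II genes at -2.81 and -0.92, and the border macrophage genes at -1.54 and 0.70.

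In cultures that received cocaine after Tat, 618 genes (3.89%) were higher and 790 (4.97%) lower in Tat-Cocaine-4OI than in Tat-Cocaine-Amlexanox. The count of 1408 was 700 without Tat-Cocaine-Amlexanox replicate 1, 845 without replicate 3, 627 without Tat-Cocaine-4OI replicate 1 and 778 without replicate 3. Of the genes called in Tat cultures, 430 were higher in both conditions (39.3% of the Tat and 69.6% of the Tat-cocaine list), 543 were lower in both (50.1% and 68.7%), and 0 were called in opposite directions. Over all tested genes, which share libraries and are no replicates, Pearson's r of the differences was 0.783 and Spearman's rho was 0.681. The libraries were different ones, but those with the same replicate number deviated together, at 0.604, 0.63 and 0.283 for 4OI and 0.453, 0.582 and 0.605 for amlexanox, so these are not independent samples. The test of the difference itself, Tat against Tat with cocaine, called 0 genes in limma, and 350 genes were at an unadjusted p under 0.05. Nqo1 differed by 2.08 ± 0.18 with cocaine and 2.07 ± 0.18 without, Usp18 by -2.38 ± 0.63 and -2.68 ± 0.63, and Cd163 by -4.13 ± 0.62 and -3.03 ± 0.62. Orm1 (-1.65 ± 0.62, FDR 0.0949) and Cxcl6 (-2.10 ± 0.86, FDR 0.129) did not pass with cocaine.

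Without Tat, 1734 genes (10.9%) were higher and 716 (4.51%) lower in 4OI than in Amlexanox. The count of 2450 was 632 without Amlexanox replicate 3 and 1428 without 4OI replicate 3. Of the genes higher in 4OI, 326 were shared with the Tat cultures (29.8% of the Tat list and 18.8% of the list without Tat), and of those lower 86 (7.93% and 12.0%), while 16 and 10 genes were called in opposite directions. Across genes Pearson's r was 0.0496 and Spearman's rho -0.0975. The Nrf2 targets were higher in 21 of 26 without Tat (median 1.07) and cholesterol synthesis genes in 16 of 19 (median 0.86), and without Amlexanox replicate 3 these counts were 21 and 14. Called in all 3 conditions, with Tat, with Tat and cocaine, and with neither, were 246 genes higher and 56 lower with 4OI.

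Without Tat, border macrophage genes had a median difference of -0.49 and pan-myeloid genes -0.46. The summed myeloid level was 1061, 2258 and 1099.8 CPM in 4OI and 1431, 2200.3 and 2270.5 CPM in Amlexanox, with overlap. Interferon-stimulated genes were lower in 10 of 32, against 4.51% of all genes, a count of 4 without Amlexanox replicate 3. The list of 15 astrocyte genes was higher in 11 (median 0.69), against 10.9% of all genes, and in 3 without Amlexanox replicate 3 (summed astrocyte level 16758, 11725 and 8353 CPM in Amlexanox). Motile cilium genes were higher in 8 of 14, against the same 10.9%, and in 1 without that library. In the test of the difference between cultures with and without Tat, 0 of 32 interferon-stimulated, 0 of 19 pan-myeloid and 0 of 8 MHC class II genes passed in limma (3, 4 and 3 at an unadjusted p under 0.05). Of the 10 border macrophage genes 1 passed (5 at an unadjusted p under 0.05), Lyve1 (-2.11 ± 0.62, FDR 0.0317), and its call was lost without Amlexanox replicate 3. Over all genes 10.8% passed that test.

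**Figure D5:**
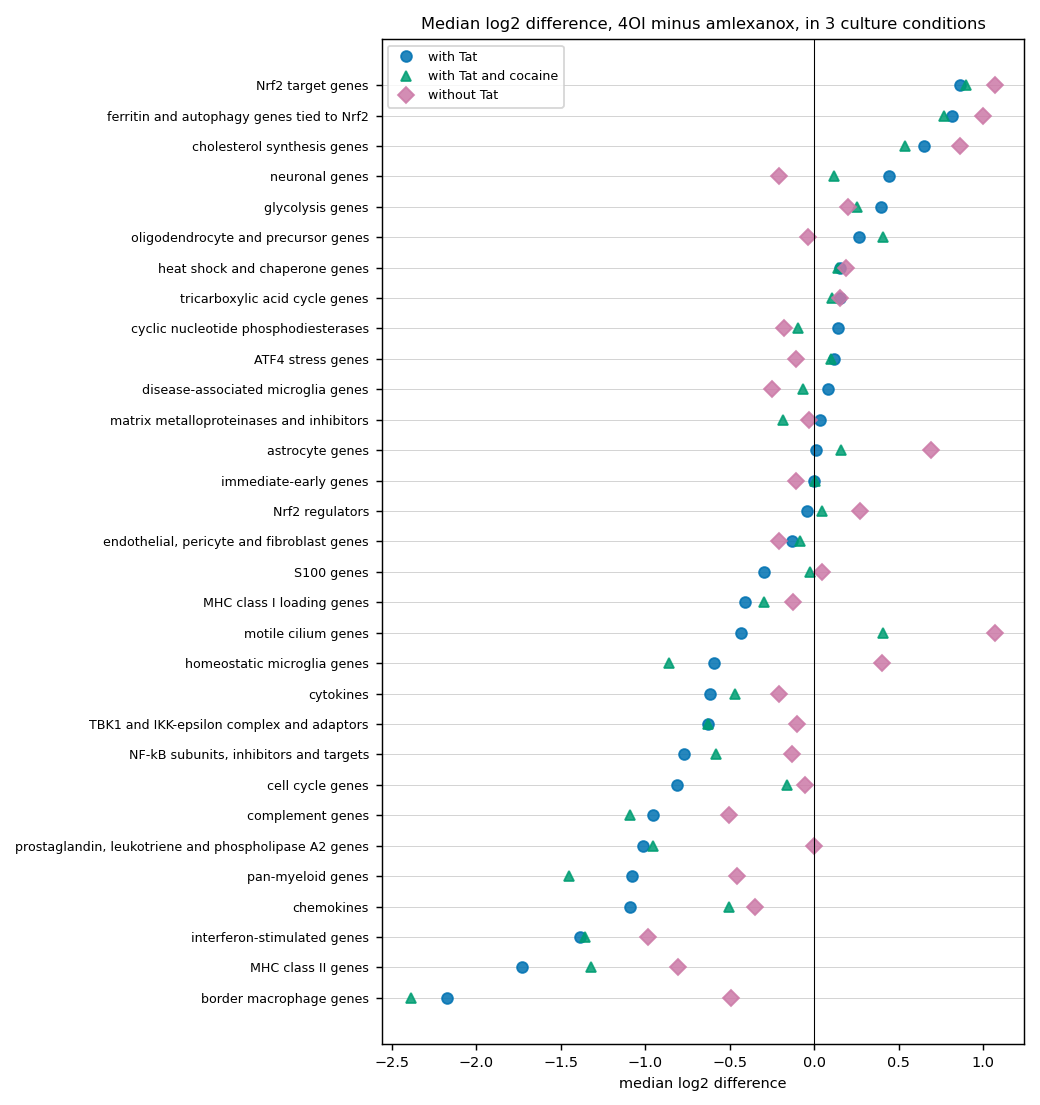
Median log2 difference, 4OI minus amlexanox (x axis), over the tested members of each gene list (rows) in cultures with Tat (blue circles), with Tat and cocaine (green triangles) and without Tat (pink diamonds). The Nrf2 target and cholesterol synthesis medians lie above 0 in all 3 conditions, and the border macrophage median lies at -2.17 with Tat, -2.39 with Tat and cocaine and -0.49 without Tat.

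The test of the difference between the conditions, Tat against no Tat, called 1719 genes (10.8%), with 623 more positive and 1096 more negative under Tat. This count rested on particular libraries. It was 37 without Amlexanox replicate 3 and 151 without Tat-Amlexanox replicate 1, but 3435 without Amlexanox replicate 1. It was 972 without Amlexanox replicate 2, 573 and 544 without 4OI replicate 1 and 3, 497 without Tat-Amlexanox replicate 2, and 570, 903 and 1092 without Tat-4OI replicate 1, 2 and 3. Of the 1719 genes, 570 were called without Tat as higher in 4OI and not in Tat cultures, and 286 were lower in Tat-4OI and not called without Tat. The 5 genes with the smallest p in this test kept their call without Amlexanox replicate 3. LOC691143 was at 19.6, 21.2 and 18.8 CPM in Tat-4OI and 85.1, 81.2 and 79.7 CPM in Tat-Amlexanox (log2 difference -2.02 ± 0.19, FDR 2.48e-09), and without Tat it was at 13.9, 14.3 and 14.1 CPM in 4OI and 14.99, 13.8 and 11.4 CPM in Amlexanox, a difference of 0.08 ± 0.19. Klf15, a Krüppel-like transcription factor, was at 31.4, 30.6 and 34.7 CPM in Tat-4OI and 76.9, 69.5 and 71.7 CPM in Tat-Amlexanox (log2 difference -1.16 ± 0.13, FDR 1.61e-07), and differed without Tat by 0.23 ± 0.13. Aox1, an aldehyde oxidase and Nrf2 target, was higher with 4OI under both conditions, by 0.85 ± 0.19 with Tat and 2.48 ± 0.19 without. Slc17a3, an organic anion transporter, was at 0.428, 0.699 and 0.827 CPM in Tat-4OI and 0, 0 and 0.0436 CPM in Tat-Amlexanox (log2 difference 1.15 ± 0.21, FDR 3.02e-04), and the difference without Tat was -0.63 ± 0.21. Slc39a6, a zinc importer, was at 132, 130.4 and 126 CPM in Tat-4OI and 100.4, 88.9 and 85.5 CPM in Tat-Amlexanox (log2 difference 0.50 ± 0.07, FDR 1.12e-05) and differed by -0.10 ± 0.07 without Tat. Of the genes described above, Cd163 (-1.82 ± 0.88, FDR 0.147) and Usp18 (-0.68 ± 0.89, FDR 0.606) were not called in this test, while Cxcl13 (-3.11 ± 0.75, FDR 0.0163) was, though not without Amlexanox replicate 3 (FDR 0.0676).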

How the data were processed

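Polyadenylated RNA of 48 libraries (16 groups of 3) was sequenced from strand-specific libraries. According to the submitters' processing notes, reads were trimmed with Trim Galore 0.4.5, aligned with STAR 2.7.2 and counted per gene with featureCounts of Subread 1.5.3. The notes name the builds mRatBN7.2 and hg38 and the methods name another rat build, so no coordinates are given in the authors' build. The authors deposited CPM, a normalized signal scaled by trimmed mean of M-values, for 30211 genes, of which 6162 were at 0 in all libraries. Values were whole multiples of 1 read (tolerance 0.02) in 85.5 to 87.3% of cases in the 6 libraries, so whole reads could not be recovered and no count model was fitted. Depth was read from the step between low values. The 36 comparisons and 16 group means of the authors were not used. The 15890 genes that reached 0.5 CPM in 3 or more libraries were tested on log2(CPM + 0.5) with limma 3.58.1 (R 4.3.3; trend), with all 48 libraries, 1 mean per group and no replicate block; FDR is the Benjamini-Hochberg adjusted p from it, two-sided, with calls under 0.05. An exact permutation test of 3 against 3 cannot go below 0.1 and was not used. Alternatives were another pseudocount, filter, scaling, set of libraries, moderation, a replicate block and leaving out each library, and, after seeing the data, an oligodendrocyte covariate and a pair of libraries left out together. The fit was tested on simulated data.

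Named genes were the 12 largest called, non-overlapping differences each way at a mean of 1 CPM or more in the higher group, up to 4 called members a list, a fixed set, and the 5 smallest p of an interaction; others are marked. Some named genes are not reported here. The members, lists and named genes were chosen with earlier results of these data known. Same-numbered Tat and Tat-cocaine libraries of each compound deviated together, so the numbers pair those conditions; with the block the test between them still called 0 genes. Promoter windows are from RefSeq (GRCr8).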

Additional observations from a re-analysis of the deposited data

Results flagged for a closer look

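The effect of the same pair of treatments differed between cultures with and without Tat in 1719 genes by the interaction term of the fit (limma, FDR under 0.05), and the count was 37 without Amlexanox replicate 3, 151 without Tat-Amlexanox replicate 1 and 3435 without Amlexanox replicate 1. The 5 genes with the smallest p were picked out by this test. For LOC691143 the 4OI minus amlexanox difference changed by -2.10 ± 0.27 when Tat was present (FDR 4.30e-05), and by -1.99 without Amlexanox replicate 3 (FDR 0.000522). For Klf15 the change was -1.39 ± 0.19 (FDR 9.26e-05), and -1.26 without that library (FDR 0.00110). Slc17a3 changed by 1.78 ± 0.29 (FDR 0.00246), and by 1.71 without it (FDR 0.0135). The change of Aox1 was -1.63 ± 0.27 (FDR 0.00246), and -1.29 without it (FDR 0.0114). Slc39a6 changed by 0.60 ± 0.10 (FDR 0.00354), and by 0.55 without it (FDR 0.0209). Of the genes described for other reasons, Cxcl13 changed by -3.11 ± 0.75 (FDR 0.0163) and Lyve1 by -2.11 ± 0.62 (FDR 0.0317), and without Amlexanox replicate 3 the values were -3.26 (FDR 0.0676) and -2.18 (FDR 0.104).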

How the results depend on the processing

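For Tat-4OI against Tat-Amlexanox the 2178 genes ranged from 708 to 2342 when libraries were left out in turn, and 514 were left with an added minimum difference of 1 (log2). The share of called genes that were higher was 50.2% and became 35.02% with libraries rescaled to the same sum. Without Tat, 2450 genes became 538 with the added minimum, 532 in a fit to the groups compared only and 632 to 3555 when libraries were left out. With Tat and cocaine, 1408 became 454 with the added minimum, 469 in the fit to the groups compared and 627 to 1689 in the leave-outs. The interaction of 1719 genes became 793 with the added minimum, 987 with no filter on low values, 2618 in the fit to the groups compared and 37 to 3435 in the leave-outs. Tat against Tat with cocaine gave 0, and 1 with no filter. The cause of these shifts was not tested. Same-numbered Tat-4OI and Tat-Amlexanox libraries had deviation correlations of -0.229, 0.534 and 0.128, so the numbers are not taken to pair the samples, and not every library deviated most like its own number. The replicate block gave 3073 genes for Tat-4OI against Tat-Amlexanox in the fit to 48 libraries and 2145 in the fit to the groups compared. In the same order it gave 3064 and 1049 without Tat, 2044 and 310 with Tat and cocaine, and 2787 and 3206 for the interaction. Calls for MHC class I loading, pan-myeloid and NF-kB genes rose to 3, 16 and 16 under the block. Signs turned in leave-outs for Cxcl10 (-0.52 to 0.19, above 0 without Tat-Amlexanox replicate 2 or Tat-4OI replicate 1), Gfap (-0.0741 to 0.15, below 0 without replicate 3 of either group) and Tbk1 (-0.10 to 0.00156, above 0 without Tat-4OI replicate 2), none called with all libraries. Among the other planned values of single genes, 2739 kept direction and side of the threshold, 173 lost and 27 gained a call. Of the counts of called list members 485 stayed within 1.5 times, 67 fell and 37 rose further, and 574 list medians moved by less than the spread and 15 by more. A fit to 18 libraries was not run for the Tat-cocaine comparisons, whose groups it does not hold. At 17.5 to 22.6 M reads a library, values under 0.5 CPM rest on fewer than 8.99 to 11.5 reads and are the least precise.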

Other observations

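Other genes also differed between Tat-4OI and Tat-Amlexanox, and those below were chosen after their values were seen. Slc1a4, a neutral amino acid transporter, was at 246, 191 and 229 CPM in Tat-4OI and 75.3, 89.1 and 90.4 CPM in Tat-Amlexanox (log2 difference 1.38 ± 0.09, FDR 1.39e-13). Cat, catalase, was at 286, 273 and 281 CPM in Tat-4OI and 109, 114 and 107 CPM in Tat-Amlexanox, with replicates close together (log2 difference 1.35 ± 0.09, FDR 3.85e-13). Entpd5, a nucleotide phosphatase of the endoplasmic reticulum, was at 247, 209 and 234 CPM in Tat-4OI and 52.7, 60.6 and 59.8 CPM in Tat-Amlexanox (log2 difference 1.99 ± 0.19, FDR 4.15e-09). Each was higher in 3 of 3 Tat-4OI libraries than in any Tat-Amlexanox library, and each was higher with 4OI without Tat as well, by 1.65 ± 0.09, 1.41 ± 0.09 and 1.52 ± 0.19. Rarres1, a retinoid-induced membrane protein, was lower, at 31.8, 31.9 and 22.7 CPM in Tat-4OI and 165, 132 and 167 CPM in Tat-Amlexanox (log2 difference -2.41 ± 0.23, FDR 4.13e-09), and Tectb, a tectorial membrane protein, was at 0.375, 0.699 and 0.341 CPM in Tat-4OI and 1.84, 1.69 and 1.40 CPM in Tat-Amlexanox (log2 difference -1.15 ± 0.21, FDR 3.60e-04).

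Cyp1a1 was higher with amlexanox than with 4OI in the Tat-cocaine cultures too (-2.29 ± 0.48, FDR 0.00192), and differed by -1.13 ± 0.48 without Tat (FDR 0.107). Cyp1b1 differed by -1.75 ± 0.36 in the Tat-cocaine cultures (FDR 0.00154) and by -0.93 ± 0.36 without Tat (FDR 0.0749). The difference between cultures with and without Tat was -1.64 ± 0.68 for Cyp1a1 (FDR 0.0975) and -1.31 ± 0.51 for Cyp1b1 (FDR 0.0787), so neither passed that test.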
